A study of Mus musculus with 11 samples.

Results

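The type 2 cytokine genes Il4, Il5 and Il13, the receptor genes Il4ra, Il13ra1 and Il13ra2 and the signalling gene Stat6 were followed in mouse airway RNA. These 7 genes were found by their Ensembl identifiers among the 21899 genes of the deposited table, and each had a single entry. They were measured in 11 RNA-seq libraries from wild-type male BALB/c mice of 6 to 8 weeks. The PBS group (n = 3 libraries) was given sterile PBS and was not sensitised. The OVA/LPS/Vehicle group (n = 4) was sensitised with 50 µg of ovalbumin (OVA) and alum on days 0 and 7, challenged through the nose with 5 µg of OVA on days 14 to 17, given 50 ng of lipopolysaccharide (LPS) on days 19 and 21, and treated with vehicle. In the OVA/LPS/GGsTop group (n = 4) the vehicle was replaced by 0.5 mg/kg of GGsTop, an inhibitor of γ-glutamyl transferase, placed in the trachea from day 21 to day 23, and endpoints were on day 25. Whether the OVA/LPS/Vehicle libraries 12, 34, 56 and 78 were pools of mice is not stated. Nothing says that each library came from a separate mouse, so p-values measure the spread between libraries, part of which may be technical.

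IL-4 and IL-13 are secreted by T helper 2 cells and by type 2 innate lymphoid cells, mast cells and basophils, and IL-5 is the main growth and survival factor of eosinophils. IL-4 binds the IL-4 receptor α chain (Il4ra), which then pairs with the common γ chain (Il2rg) on blood cells or with the IL-13 receptor α1 chain (Il13ra1) on epithelium, smooth muscle and fibroblasts. IL-13 signals through the Il13ra1 pair as well, and Il13ra2 binds IL-13 with high affinity and is best known as a decoy. Apart from Il13ra2, these receptors act through Janus kinases on STAT6, which drives mucus, eotaxin and chitinase-like genes in the airway.

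The 3 cytokine genes lie close together on chromosome 11 (GENCODE M21, GRCm38): Il4 at 53602982 to 53618669 on the minus strand, Il13 at 53631324 to 53634702 on the minus strand and Il5 at 53720794 to 53725106 on the plus strand, with Rad50 between Il13 and Il5. Il4ra is on chromosome 7 (125552120 to 125579474, plus strand) and Stat6 on chromosome 10 (127642986 to 127660957, plus strand). Il13ra1 (36112110 to 36171259, plus strand) and Il13ra2 (147383476 to 147429192, minus strand) are both on chromosome X. The study measured Il5 and Il13 by quantitative PCR as well, and IL-5 and IL-13 protein in lung tissue by a bead array. It reported both transcripts as higher with OVA and LPS than with PBS. Transcripts and proteins of both were reported as lower with GGsTop than with vehicle. The PCR primers are shown because they fix which transcripts that PCR read. Both pairs matched the main GENCODE transcript of their gene over their full length, in Il13 at bases 184 to 406 (a product of 223 bases) and in Il5 at bases 165 to 266 (102 bases).
Il13 forward: agctgagcaacatcacacaagacc
Il13 reverse: tgggctacttcgattttggtatcg
Il5 forward: ctctgttgacaagcaatgagacg
Il5 reverse: tcttcagtatgtctagcccctg

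STAT proteins bind palindromes of the form TTC and GAA with 3 or 4 bases between them, and 4 bases are preferred by STAT6. The letters TTC, then any 4 or any 3 bases, then GAA, which read the same on both strands, were searched in the RefSeq promoter windows of GRCm38.p6, from 250 bases before to 50 after each start site. The form with 4 bases occurred in 6.95% and that with 3 in 8.30% of all 32851 windows. All 7 members had a window, and 1 of them, Il4, held a match. Of 105 listed pathway genes in the table, 83 had a window and 18 a match, among them Retnla, Chil3 and Chil4, whose levels are given later and which were picked with those levels known. Members and listed genes were counted per gene, for either form and over all windows of the gene. The percentages above are per window and form, so these counts cannot be set against them. The share of all genes with a match was not counted. Positions -220 to -121 from the start site are printed here with the match in capitals, to show the match of the cytokine gene, which has 4 bases between its ends, beside the match of Retnla with 4 and those of Chil3 and Chil4 with 3. The 3 target genes and the stretch were chosen for a match there, and other matches among the 18 genes lay elsewhere, such as at -6 (Il3) and 27 (Il5ra).
Il4, chr11:53618786-53618885, minus strand: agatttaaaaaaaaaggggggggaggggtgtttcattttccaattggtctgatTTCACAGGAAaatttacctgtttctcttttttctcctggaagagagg
Retnla, chr16:48842389-48842488, plus strand: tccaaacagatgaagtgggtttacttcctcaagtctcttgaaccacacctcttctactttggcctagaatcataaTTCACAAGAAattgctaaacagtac
Chil3, chr3:106167685-106167784, minus strand: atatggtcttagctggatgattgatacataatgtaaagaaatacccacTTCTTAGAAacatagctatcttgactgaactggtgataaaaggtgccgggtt
Chil4, chr3:106219600-106219699, minus strand: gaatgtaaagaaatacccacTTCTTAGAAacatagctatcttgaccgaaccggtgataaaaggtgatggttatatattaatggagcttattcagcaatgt
The match TTCACAGGAA of Il4 began at -167 and TTCACAAGAA of Retnla at -145. Chil3 and Chil4, which are close copies of each other, shared TTCTTAGAA at -172 and -200. A further start site of Il4 had TTCATGGAA at -4. These matches describe the sequence and were not tested for binding. The windows of Il5, Il13, Il4ra, Il13ra1, Il13ra2 and Stat6 held neither string of letters.

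Libraries held 14513136 to 18632382 fragments. The authors' labels call the tissue trachea, and their methods describe dissected airway without trachea. Airway epithelial markers summed to 28601 to 53083 FPKM (fragments per kilobase of exon, scaled to the library's total), most of it from Scgb1a1 (26145 to 47905). Cartilage markers summed to 0.562 to 57.6 FPKM, with 55.9 in PBS 2 and 57.6 in OVA/LPS/GGsTop 4. PBS 3 stood apart: its levels rose with the GC content of genes by 0.533 log2 per 10 percentage points. This slope was 0.0464 to 0.108 in PBS 1 and 2 and the libraries treated with GGsTop, and -0.261 to -0.190 with vehicle. OVA/LPS/Vehicle 12 held thymocyte genes (37.0 FPKM summed, at most 10.5 elsewhere), and the 3 libraries OVA/LPS/Vehicle 12, 34 and 56 held thyroid genes (92.9 to 315 FPKM, at most 1.68 elsewhere). Values without PBS 3 and after a GC correction are given for the members, and for many of the list counts and calls they change. Without OVA/LPS/Vehicle 12, the genes named here that lost a call between vehicle and PBS were Il4, Il7r (adjusted p = 0.0769), Sept8 (0.0619) and Prg2 (0.0695). Leaving out all 3 libraries with thyroid genes kept 1 vehicle library, assumed to vary like the other groups. That fit called 4 genes between vehicle and PBS, among them Retnla (6.49, adjusted p = 0.0407) and none of the members, whose differences were 0.89 for Il4, -0.89 for Il4ra, 1.35 for Il13ra1 and -0.41 for Stat6 (adjusted p = 0.229 to 0.290 by limma).

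Per unit of exon length Stat6, Il4ra and Il13ra1 were far more abundant than the cytokines, while the receptor gene Il13ra2 stayed below Il4 in every group. In PBS airway, Stat6 averaged 42.4 ± 5.73 FPKM (SD, n = 3), Il4ra 39.1 ± 13.6 and Il13ra1 13.1 ± 6.20, and the ranges of Stat6 and Il4ra overlapped while that of Il13ra1 lay below both. Il4 followed at 2.18 ± 1.17, Il13 at 0.0772 ± 0.0914, and Il5 and Il13ra2 were listed at 0. In the OVA/LPS/Vehicle group the order was Il13ra1 (30.7 ± 4.46 FPKM, n = 4), Stat6 (28.5 ± 2.604), Il4ra (21.2 ± 0.938), Il4 (4.12 ± 0.493), Il13ra2 (0.289 ± 0.268), Il13 (0.0516 ± 0.0597) and Il5 (0.0502 ± 0.0595). Here Il13ra1 and Stat6 overlapped, Il4ra lay below both, and the last 3 overlapped. The OVA/LPS/GGsTop group kept Stat6 first (39.5 ± 4.50, n = 4), with Il4ra (24.8 ± 5.37) and Il13ra1 (23.7 ± 7.35) overlapping below it, then Il4 (3.90 ± 0.965), Il13 (0.136 ± 0.140), Il13ra2 (0.0806 ± 0.0451) and Il5 (0.0424 ± 0.0337), the last 3 overlapping.

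**Figure D1:**
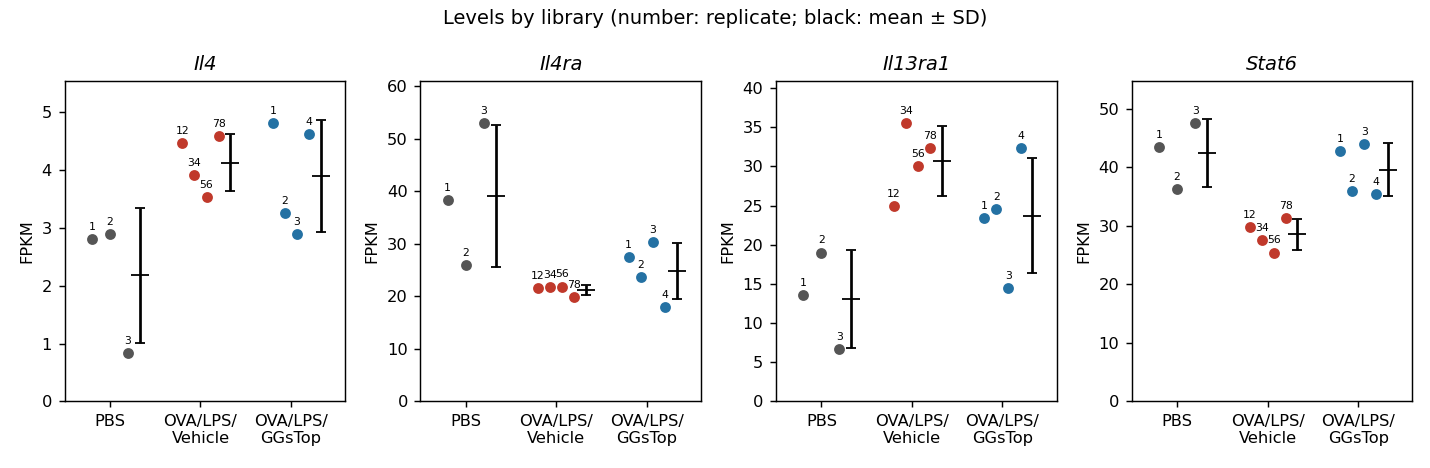
FPKM of Il4, Il4ra, Il13ra1 and Stat6 (vertical axes, from 0) in each library of the 3 groups, with the replicate number beside each point and the mean ± SD in black. Il4 and Il13ra1 were higher, and Il4ra and Stat6 lower, in every OVA/LPS/Vehicle library than in every PBS library. The share of all genes that separated these groups in this way was not counted, and 38% of all genes tested were called between them. PBS 3 was the lowest PBS library for Il4 and Il13ra1 and the highest for Il4ra and Stat6.

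Among the cytokines, Il4 was the only one with more than a few fragments per library. Its level was 2.81, 2.89 and 0.831 FPKM in PBS 1, 2 and 3 (52, 55 and 19 fragments), 4.47, 3.92, 3.53 and 4.58 FPKM in OVA/LPS/Vehicle 12, 34, 56 and 78, and 4.82, 3.26, 2.89 and 4.63 FPKM in OVA/LPS/GGsTop 1 to 4. Every library given OVA and LPS was above every PBS library, though OVA/LPS/GGsTop 3 (2.893) and PBS 2 (2.891) were nearly level. Il4 was 1.89-fold higher in the OVA/LPS/Vehicle mean than in PBS (log2 fold change of FPKM + 1 0.76, SE 0.25, adjusted p = 0.0321 by limma). Without PBS 3 the difference was 0.41 (adjusted p = 0.110), and after GC correction 0.38 (adjusted p = 0.179). The call was also lost without OVA/LPS/Vehicle 12, 34 or 78 (adjusted p = 0.0641, 0.0580 and 0.0724). GGsTop and vehicle libraries overlapped (-0.08, SE 0.23, adjusted p = 0.840), and the difference of GGsTop from PBS did not pass the threshold (0.68, SE 0.25, adjusted p = 0.157).

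What was counted as Il4 was wider than the coding gene. The deposited values came out as whole fragments in all 11 libraries with the 1227 bases of all annotated Il4 exons, and in 0 of 11 with the 983 bases left without 2 exons that only transcript Il4-202 has, at 53609580 to 53609644 and 53602982 to 53603160. All 179 bases of the last of these lie inside Kif3a, a kinesin motor gene needed for cilia, as RefSeq draws it on the opposite strand (53565701 to 53604248). No source used here says that strand was used in counting, so fragments of Il4 and Kif3a cannot be told apart there. Kif3a itself stood at 7.66 to 10.2 FPKM in PBS, 10.7 to 11.97 with vehicle and 9.14 to 12.98 with GGsTop, lowest in PBS 3 as Il4 was, and its share in the Il4 values was not tested.

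**Figure D2:**
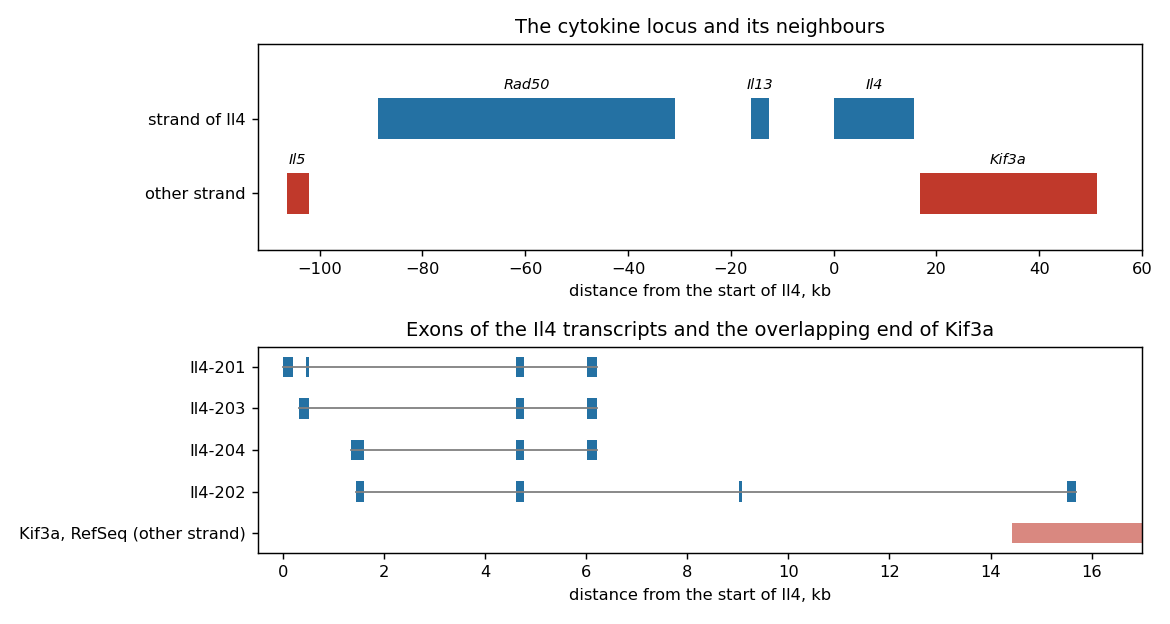
Top: positions of Kif3a, Il4, Il13, Rad50 and Il5 as kb from the start of Il4 (GENCODE M21), by strand. Bottom: exons (boxes) of the 4 Il4 transcripts and the end of RefSeq Kif3a on the other strand, which covers the last exon of Il4-202 and none of the other Il4 exons.

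Il13 was at or near the limit of detection in every group. It had 0, 1 and 4 fragments in PBS 1, 2 and 3, 2, 0, 0 and 2 in the OVA/LPS/Vehicle libraries and 1, 3, 6 and 0 in the OVA/LPS/GGsTop libraries. Summed over a group this was 0.102 FPM (fragments per 1000000 fragments of the group) in PBS (95% exact Poisson interval 0.0330 to 0.237), 0.0625 in OVA/LPS/Vehicle (0.0170 to 0.160) and 0.166 in OVA/LPS/GGsTop (0.0797 to 0.306). All 3 intervals overlapped, and no order among the groups was detectable at this depth. Exact two-sided permutation tests of log2(FPKM + 1) gave p = 0.743 for vehicle against PBS, p = 0.371 for GGsTop against vehicle and p = 0.686 for GGsTop against PBS (adjusted p = 0.743 in each of these permutation tests).

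Il5 was seen only in libraries from mice given OVA and LPS, but in single fragments. No PBS library had one, which allows up to 0.0610 FPM for the group (3 fragments over its 49197926). OVA/LPS/Vehicle 12 and 78 had 2 and 3 fragments and the other two had 0, and OVA/LPS/GGsTop 1, 3 and 4 had 1, 2 and 1 while OVA/LPS/GGsTop 2 had 0. The summed levels, 0.0782 FPM with vehicle (exact interval 0.0254 to 0.182) and 0.0665 with GGsTop (0.0181 to 0.170), were not separable from each other or from that limit. The exact permutation p-values were 0.571 for vehicle against PBS, 0.914 for GGsTop against vehicle and 0.229 for GGsTop against PBS (adjusted 0.857, 0.914 and 0.686). With 3 against 4 libraries no permutation p can go below 0.0571, and with 4 against 4 none below 0.0286. Intervals and limits cover counting error only.

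Il13ra2, the decoy receptor, had fragments in all 8 libraries from mice given OVA and LPS and in none of the 3 PBS libraries. The counts were 8, 6, 3 and 26 in OVA/LPS/Vehicle 12, 34, 56 and 78 (0.226, 0.166, 0.0825 and 0.682 FPKM) and 2, 2, 2 and 5 in OVA/LPS/GGsTop 1 to 4 (0.0582, 0.0604, 0.0556 and 0.148 FPKM). Divided by the limit of 3 fragments over the PBS group, the summed level gave a ratio of 11.025 with vehicle and 2.999 with GGsTop. Leaving out OVA/LPS/Vehicle 78, which held most of the fragments, the ratio for vehicle was 5.90, and without OVA/LPS/GGsTop 4 that for GGsTop was 2.17. These ratios leave out the counting error of the vehicle and GGsTop sums, so they are not lower bounds. The exact intervals began at 0.487 FPM with vehicle and 0.0913 FPM with GGsTop, and that of PBS ended at 0.0750 FPM. Both comparisons with PBS gave an exact permutation p of 0.0571, the smallest that 3 against 4 libraries allow.
GGsTop libraries had lower Il13ra2 levels (0.183 FPM, exact interval 0.0913 to 0.327) than vehicle libraries (0.672 FPM, 0.487 to 0.906). The ranges overlapped, since OVA/LPS/GGsTop 4 exceeded OVA/LPS/Vehicle 56, and the exact permutation p was 0.0571 (adjusted p = 0.0571). Without OVA/LPS/Vehicle 78 the vehicle level was 0.3598 FPM and the permutation p was 0.114.

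**Figure D3:**
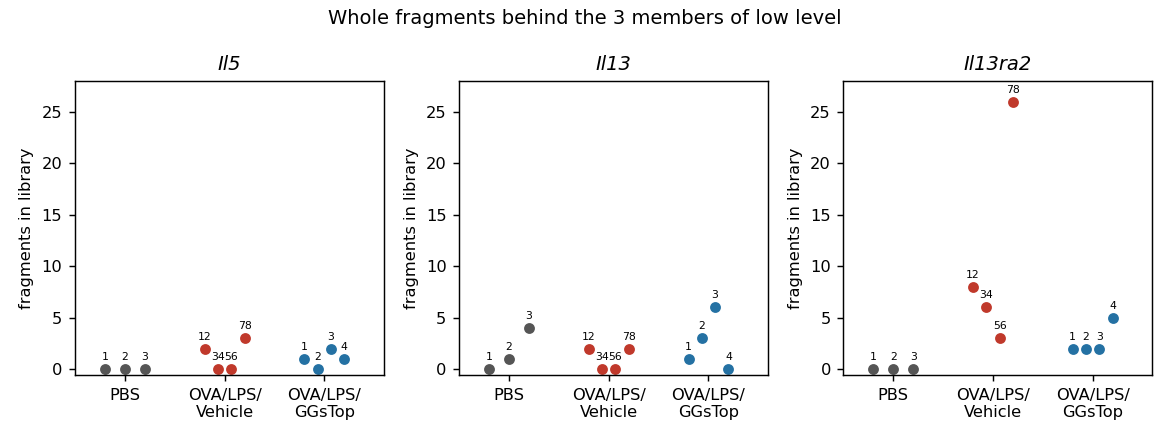
Whole fragments of Il5, Il13 and Il13ra2 per library (vertical axis) in the 3 groups, with replicate numbers. Il5 and Il13 stayed between 0 and 6 in every library, and Il13ra2 was at 0 in PBS, 3 to 26 with vehicle and 2 to 5 with GGsTop.

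The receptor chain that serves both cytokines fell while its partner rose. Il4ra was at 38.4, 25.9 and 53.0 FPKM in PBS 1 to 3, at 21.5, 21.8, 21.9 and 19.9 FPKM in OVA/LPS/Vehicle 12, 34, 56 and 78 and at 27.4, 23.6, 30.3 and 17.9 FPKM in OVA/LPS/GGsTop 1 to 4. The vehicle libraries were tightly grouped and all below PBS, and the GGsTop libraries spread from below the vehicle range into the PBS range. Il4ra fell by 0.79 on the log2 scale with vehicle against PBS (SE 0.22, adjusted p = 0.0169). The fall was 0.55 without PBS 3 (adjusted p = 0.0726) and 0.49 after GC correction (adjusted p = 0.0826), neither of which passed the threshold. GGsTop differed from vehicle by 0.19 (SE 0.20, adjusted p = 0.545) and from PBS by -0.60 (SE 0.22, adjusted p = 0.154).

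Il13ra1 moved the other way. It was at 13.6, 19.01 and 6.64 FPKM in PBS 1 to 3, at 24.97, 35.6, 30.1 and 32.4 FPKM in OVA/LPS/Vehicle 12, 34, 56 and 78 and at 23.4, 24.5, 14.4 and 32.4 FPKM in OVA/LPS/GGsTop 1 to 4. All vehicle libraries were above all PBS libraries, while OVA/LPS/GGsTop 3 lay inside the PBS range. Il13ra1 rose 2.35-fold in the means with vehicle against PBS (log2 fold change 1.27, SE 0.31, adjusted p = 0.0112), the widest change of the 4 members tested in that comparison. The call held after GC correction (0.83, adjusted p = 0.0468) and without PBS 3 (0.88, adjusted p = 0.0428), but with both together it was lost (0.59, adjusted p = 0.184). GGsTop lay between the other groups without a call against either, at -0.40 from vehicle (SE 0.29, adjusted p = 0.355) and 0.87 from PBS (SE 0.31, adjusted p = 0.154). Without PBS 2, both Il13ra1 (1.17, adjusted p = 0.0342) and Il4ra (-0.86, adjusted p = 0.0198) were called between GGsTop and PBS.

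The opposite shifts changed the proportion of the chains inside each library. The ratio of Il13ra1 to Il4ra FPKM was 0.354, 0.733 and 0.125 in PBS 1 to 3, 1.16, 1.63, 1.37 and 1.63 in OVA/LPS/Vehicle 12, 34, 56 and 78 and 0.854, 1.04, 0.476 and 1.81 in OVA/LPS/GGsTop 1 to 4. Il4ra was the more abundant in every PBS library and Il13ra1 in every vehicle library, with both orders among GGsTop libraries. On the log2 scale after GC correction, Il4ra stayed above Il13ra1 in every PBS library, but among vehicle libraries Il13ra1 was above Il4ra in OVA/LPS/Vehicle 34 and 78 only. There Il4ra was the higher in OVA/LPS/Vehicle 12 (4.61 against 4.52), and both stood at 4.70 in OVA/LPS/Vehicle 56. Il2rg, the common γ chain, was at 8.65 to 13.4 FPKM in PBS, 6.09 to 8.95 with vehicle and 4.76 to 7.65 with GGsTop, and it was not called in any comparison (vehicle against PBS -0.39, SE 0.18, adjusted p = 0.111). Relative to Il2rg, Il13ra1 stood at 0.496 to 2.16 in PBS, 2.79 to 5.32 with vehicle and 1.89 to 6.81 with GGsTop.

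Stat6 was called in 2 comparisons and in opposite directions. Its level was 43.4, 36.2 and 47.6 FPKM in PBS 1 to 3, 29.8, 27.5, 25.4 and 31.4 FPKM in OVA/LPS/Vehicle 12, 34, 56 and 78 and 42.8, 35.9, 44.0 and 35.4 FPKM in OVA/LPS/GGsTop 1 to 4. The vehicle libraries were below all others, and the PBS and GGsTop ranges overlapped. Stat6 fell by 0.55 with vehicle against PBS (SE 0.13, adjusted p = 0.00880) and remained called after GC correction (-0.35, adjusted p = 0.0481) and without PBS 3 (-0.47, adjusted p = 0.0298), though not with both (-0.33, adjusted p = 0.129). With GGsTop it rose 1.39-fold in the means over vehicle (0.46, SE 0.12, adjusted p = 0.0389). This call was lost after GC correction (0.32, adjusted p = 0.108) and in 7 of the 11 fits that left out a library in turn. Those were the fits without any 1 of the vehicle libraries or of OVA/LPS/GGsTop 1, 2 and 3. Without OVA/LPS/GGsTop 4 the call was kept (adjusted p = 0.0403). Leaving out a PBS library, which is in neither group, left the difference at 0.456 and could change only its error. Over the 11 fits the difference stayed between 0.40 and 0.51 and the adjusted p between 0.0127 and 0.119. GGsTop and PBS differed by -0.10 (SE 0.13, adjusted p = 0.687).

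Counted over the members, 4 of 7 passed the minimum of 0.5 FPKM and could be tested in the fit. All 4 of these were called between OVA/LPS/Vehicle and PBS, Il4 and Il13ra1 higher and Il4ra and Stat6 lower, where 38% of all 14004 genes tested were called (15.9% higher and 22.1% lower). After GC correction 2 members remained, Il13ra1 and Stat6, and the same 2 remained without PBS 3. With both changes together 0 members were called by limma, and 736 genes in all. Between OVA/LPS/GGsTop and OVA/LPS/Vehicle 1 member was called, Stat6, with 8.71% of all genes called (6.9% higher and 1.81% lower). Against PBS, OVA/LPS/GGsTop gave 0 called members by limma and also by limma voom on whole fragments, with 2.88% of all genes called (2.06% higher and 0.821% lower), although at an unadjusted p under 0.05 a total of 2873 genes passed. The comparisons share groups and are not independent of each other.

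**Figure D4:**
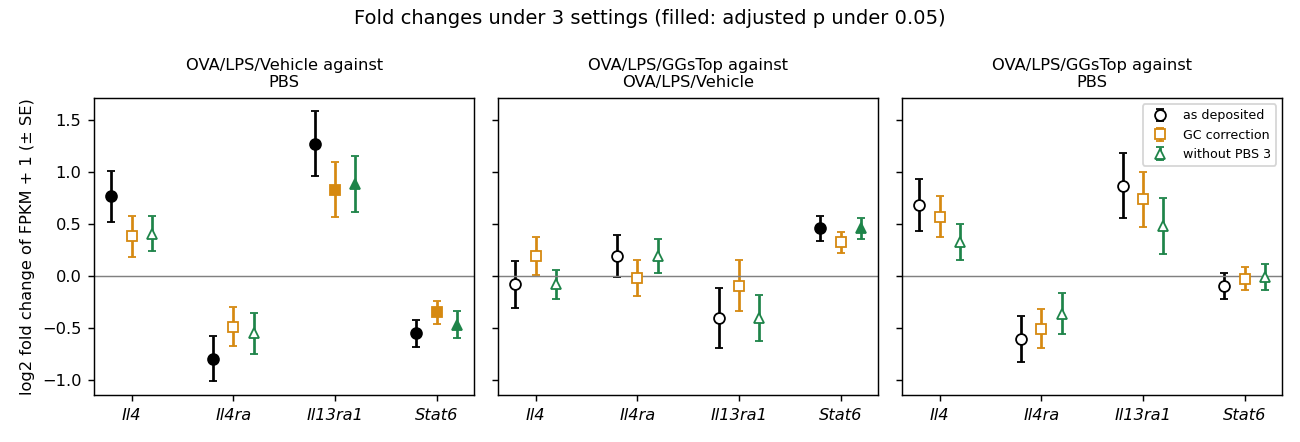
Log2 fold changes of FPKM + 1 (vertical axis, ± SE) of Il4, Il4ra, Il13ra1 and Stat6 in the 3 comparisons, from the deposited values, after GC correction and without PBS 3; filled symbols have an adjusted p under 0.05. All 4 members were filled between vehicle and PBS with the deposited values, and Il13ra1 and Stat6 under all 3 settings.

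The direction of the 4 tested members between OVA/LPS/Vehicle and PBS went with their base composition. Il4 (42.3% GC in its longest transcript) and Il13ra1 (41.2%) are below the median of the tested genes (49.9%) and were higher, and Il4ra (55.8%) and Stat6 (53.7%) are above it and were lower. The members outside the fit were not GC corrected. Among them Il13ra2, which had fragments in no PBS library, has 37.4% GC, Il5 44.9% and Il13 53.4%. Tissue markers moved in the same comparison, in which 15.9% of all genes tested were higher and 22.1% lower. Of 8 airway epithelial markers, 4 were higher and 0 lower (4 higher after GC correction and 2 without PBS 3). Foxj1, the regulator of motile cilia, was at 21.2 to 35.3 FPKM in PBS, 61.4 to 92.5 with vehicle and 72.9 to 157 with GGsTop, beside the rise of Il13ra1. Of 5 endothelial markers, 3 were lower and 0 higher, with a summed level of 885 to 1636 FPKM in PBS, 643 to 811 with vehicle and 448 to 1043 with GGsTop, beside the fall of Il4ra, with a median log2 fold change of -0.66 as deposited and -0.62 after GC correction. All 5 endothelial differences were negative, and 0 were called lower after GC correction or without PBS 3. Of 6 alveolar epithelial markers, 2 were lower and 0 higher (2 lower after GC correction and 1 without PBS 3), and their sum was 10250 to 16313 FPKM in PBS, 5280 to 8708 with vehicle and 4643 to 11990 with GGsTop. Of 6 fibroblast markers, 2 were lower and 0 higher (1 lower after GC correction and 1 without PBS 3). Of 6 heart and skeletal muscle markers, 2 were higher and 0 lower (median 2.35, with 1 higher after GC correction and 0 without PBS 3). Their sum was 91.8, 831 and 109 FPKM in PBS 1 to 3, 455 to 550 with vehicle and 304 to 1113 with GGsTop. All 5 adipocyte markers had a positive difference (median 1.51) and 0 were called. They summed to 26.0 to 283 FPKM in PBS, 202 to 632 with vehicle and 17.8 to 334 with GGsTop. T cell markers, beside Il4, summed to 29.2 to 53.5 FPKM in PBS, 23.6 to 108 with vehicle and 18.7 to 32.3 with GGsTop, and 0 of 8 were called by limma in any comparison. Mast cell and basophil markers summed to 60.6 to 69.5 FPKM in PBS, 48.0 to 55.6 with vehicle and 44.7 to 48.8 with GGsTop, and 6 of their 8 differences between vehicle and PBS were positive (median 0.28). Kit, a stem cell factor receptor that other cells carry too, held much of that sum and fell from 27.7 to 46.1 FPKM in PBS to 17.9 to 22.2 with vehicle (-0.91, SE 0.25, adjusted p = 0.0165), while Ms4a2, a chain of the IgE receptor, was higher with vehicle (0.65, SE 0.15, adjusted p = 0.00875, and 0.744 after GC correction). The part of these cell types in the members' levels was not tested, and in bulk tissue fewer cells of a type cannot be told apart from less RNA per cell.

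The genes whose log2(FPKM + 1) went most closely with each member over the 11 libraries are given as a description, in which the points share groups, GC slopes and tissue makeup. For Il13ra1 these were Tbc1d32 (Pearson r = 0.992), Saxo2 (0.984) and Efhb (0.983). Il4ra went most closely with Plvap (0.989), Hba-a1 (0.985) and Ptgfrn (0.984), and Stat6 with Dop1b, Nisch and Kmt2b (0.986, 0.986 and 0.985). Il4 went with Rasa2 (0.963), N4bp2 (0.957) and Strbp (0.955).

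Of the other cytokines of the family, Il3 was listed at 0 in every library, and Il9 and Il31 were each above 0 in a single library (0.126 FPKM in OVA/LPS/GGsTop 4 and 0.107 FPKM in OVA/LPS/Vehicle 12). Csf2, which encodes GM-CSF, was at 0.403 to 1.54 FPKM in PBS, 0.161 to 1.12 with vehicle and 0.166 to 1.11 with GGsTop and was not called. Of the 9 cytokine receptors tested, 1 was higher and 1 lower between vehicle and PBS, which were the members Il13ra1 and Il4ra. Of all genes tested, 15.9% were higher and 22.1% lower there. Il5ra, the IL-5 receptor chain of eosinophils, was at 0.390 to 0.799 FPKM in PBS, 0.474 to 1.91 with vehicle and 0.833 to 1.89 with GGsTop, where the GGsTop libraries lay above PBS (0.69, SE 0.24, adjusted p = 0.147). Csf2rb, the β chain that IL-5 and GM-CSF share, was not called, with -0.44 (SE 0.24, adjusted p = 0.155) for vehicle against PBS and 0.52 (SE 0.22, adjusted p = 0.136) for GGsTop against vehicle. Csf2ra (-0.79, adjusted p = 0.0631, and 0.86, adjusted p = 0.0766) and Il3ra (-0.39, adjusted p = 0.0814, and 0.39, adjusted p = 0.117), the α chains for GM-CSF and IL-3, were not called in these comparisons either. Without PBS 3, 2 of the 9 receptors were called higher between GGsTop and vehicle, against 0 with the deposited values. Of 7 eosinophil markers tested, 1 was higher and 0 lower between vehicle and PBS (median 0.16, and -0.12 after GC correction). Between GGsTop and PBS, where 2.06% of all genes were higher, 1 was higher. That gene, Prg2, which encodes a granule protein, rose over PBS with vehicle (0.58, adjusted p = 0.0303) and with GGsTop (1.19, adjusted p = 0.0144). Neither rise of Prg2 was called without PBS 3. The eosinophil peroxidase gene Epx, too low to be tested, was at 0 FPKM in PBS, 0 to 0.262 with vehicle and 0 to 0.170 with GGsTop. Between GGsTop and vehicle all 7 tested markers had a positive difference (median 0.45), with 0 called as deposited and 2 higher without PBS 3.

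Downstream of the receptors, 8 of 21 signalling genes were lower and 0 higher between vehicle and PBS, where 22.1% of all genes tested were lower and 15.9% higher. Their median log2 fold change was -0.30 against -0.01 for all genes tested. Besides Stat6, the Janus kinase genes Jak3 (-1.01, SE 0.25, adjusted p = 0.0115) and Tyk2 (-0.68, SE 0.15, adjusted p = 0.00846) fell, as did Stat5b (-0.36, SE 0.09, adjusted p = 0.0140) and Ptpn6, a phosphatase that restrains cytokine signalling (-0.44, SE 0.15, adjusted p = 0.0430). Jak1, which pairs with Il4ra, was not called (-0.20, SE 0.09, adjusted p = 0.0904). After GC correction 4 were lower and 1 higher, and without PBS 3 there were 5 lower. Tyk2 (adjusted p = 0.0511), Stat5b (0.0722) and Ptpn6 (0.366) were not called after GC correction, nor Ptpn6 without PBS 3 (0.155).
GGsTop against vehicle raised Tyk2 (0.53, SE 0.14, adjusted p = 0.0449) together with Stat6, where 6.9% of all genes were higher. The other 19 signalling genes were not called. Tyk2 was at 9.09 to 16.1 FPKM in PBS, 6.56 to 7.98 with vehicle and 10.1 to 11.8 with GGsTop, so that here too vehicle lay below both other groups. Neither Tyk2 nor Stat6 was called after GC correction or without OVA/LPS/Vehicle 12, and without PBS 3 the counts were 8 higher and 1 lower. Socs1, a feedback inhibitor of the pathway, was at 2.02 to 3.12 FPKM in PBS, 2.24 to 4.17 with vehicle and 1.12 to 1.80 with GGsTop. GGsTop libraries were all below vehicle libraries, with -0.57 (SE 0.18, adjusted p = 0.0647) as deposited and -0.84 (adjusted p = 0.0324) after GC correction. No signalling gene was called between GGsTop and PBS by limma, where the smallest p-values were those of Ptpn6 (adjusted p = 0.109) and Jak1 (adjusted p = 0.170).

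Of the 21 target genes of IL-13 and STAT6 in airway epithelium, 14 were higher, 0 lower and 7 not called between vehicle and PBS, with 15.9% of all genes higher and 22.1% lower. The median log2 fold change of the 21 was 1.46, and the counts were 15 higher and 1 lower after GC correction, and 11 higher without PBS 3. Clca1, a goblet cell product, was at 0, 0.376 and 0.554 FPKM in PBS 1 to 3, 808, 894, 374 and 1338 FPKM in OVA/LPS/Vehicle 12, 34, 56 and 78 and 589, 714, 67.0 and 1557 FPKM in OVA/LPS/GGsTop 1 to 4. Its log2 fold change was 9.23 with vehicle (SE 0.83, adjusted p = 0.000500) and 8.48 with GGsTop (SE 0.83, adjusted p = 0.000870), both against PBS. Muc5ac, the main inducible airway mucin, rose from 0.0556 to 0.420 FPKM in PBS to 3.38 to 11.5 with vehicle and 1.51 to 23.8 with GGsTop. The goblet cell factor Spdef (1.46, SE 0.31, adjusted p = 0.00660), the chitinase-like gene Chil4 (7.30, SE 0.82, adjusted p = 0.00242), the trefoil gene Tff2 (5.37, SE 0.92, adjusted p = 0.00393) and the eotaxin gene Ccl11 (2.20, SE 0.40, adjusted p = 0.00451) rose with vehicle too. Postn, which encodes periostin and is a known IL-13 target, was not called (0.18, SE 0.16, adjusted p = 0.369), and with the correction for GC its difference was -0.44 (adjusted p = 0.0168).
GGsTop against vehicle, where 8.71% of all genes were called, moved 1 of these 21, Fkbp5 (0.65, SE 0.15, adjusted p = 0.0312). Fkbp5 is also a glucocorticoid target, and after GC correction it was not called (adjusted p = 0.0518). The differences of Clca1 (-0.76, SE 0.77, adjusted p = 0.524), Muc5ac (0.16, SE 0.56, adjusted p = 0.871) and Ccl11 (0.03, SE 0.37, adjusted p = 0.970) were within about 1 SE of 0. Between GGsTop and PBS 7 were higher and 0 lower, where 2.06% of all genes were higher, and 3 of these 7 were called without PBS 3. OVA/LPS/GGsTop 3 was the lowest GGsTop library for Clca1, Muc5ac, Chil4, Ccl11, Retnla, Chil3 and Il13ra1. The same library had 0.0288 FPKM of the basal cell gene Krt5 (2.30 to 33.1 in the other GGsTop libraries) and 245 FPKM of the secretory cell gene Scgb3a1 (1205 to 4097 in the others). Its cartilage (0.562 FPKM) and adipocyte (17.8 FPKM) marker sums were the lowest of the 11 libraries, and the part of tissue makeup in these levels was not tested.

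Among target genes of IL-4 and STAT6 in macrophages and B cells, 3 of 16 were higher and 1 lower between vehicle and PBS, where 15.9% of all genes were higher and 22.1% lower. Retnla, a marker of alternatively activated macrophages that airway epithelium makes too, rose from 36.7, 51.0 and 74.8 FPKM in PBS 1 to 3 to 3651, 3449.75, 2093 and 4764 FPKM in OVA/LPS/Vehicle 12, 34, 56 and 78 and 2627, 3689.7, 1188 and 4025 FPKM in OVA/LPS/GGsTop 1 to 4. The chitinase-like gene Chil3 rose (2.65, SE 0.53, adjusted p = 0.00569), as did Socs2 (0.29, SE 0.11, adjusted p = 0.0499, 0.518 after GC correction and 0.131 without PBS 3), while Tgm2, a transglutaminase, fell (-1.03, SE 0.19, adjusted p = 0.00489). Arg1, an arginase of alternatively activated macrophages, was at 0.626 to 1.07 FPKM in PBS, 0.965 to 3.27 with vehicle and 0.427 to 3.12 with GGsTop and was not called (0.55, SE 0.33, adjusted p = 0.202). Between GGsTop and vehicle, where 8.71% of all genes were called, 0 of 16 were called by limma. The smallest p-values were those of Tgm2 (0.52, SE 0.18, adjusted p = 0.0836) and Ccl17 (0.58, SE 0.26, adjusted p = 0.150), and without PBS 3 there were 2 higher. Against PBS, GGsTop raised Retnla (5.62, SE 0.42, adjusted p = 0.000266) and Chil3 (2.85, SE 0.53, adjusted p = 0.0215, and 0.0786 without PBS 3).

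**Figure D5:**
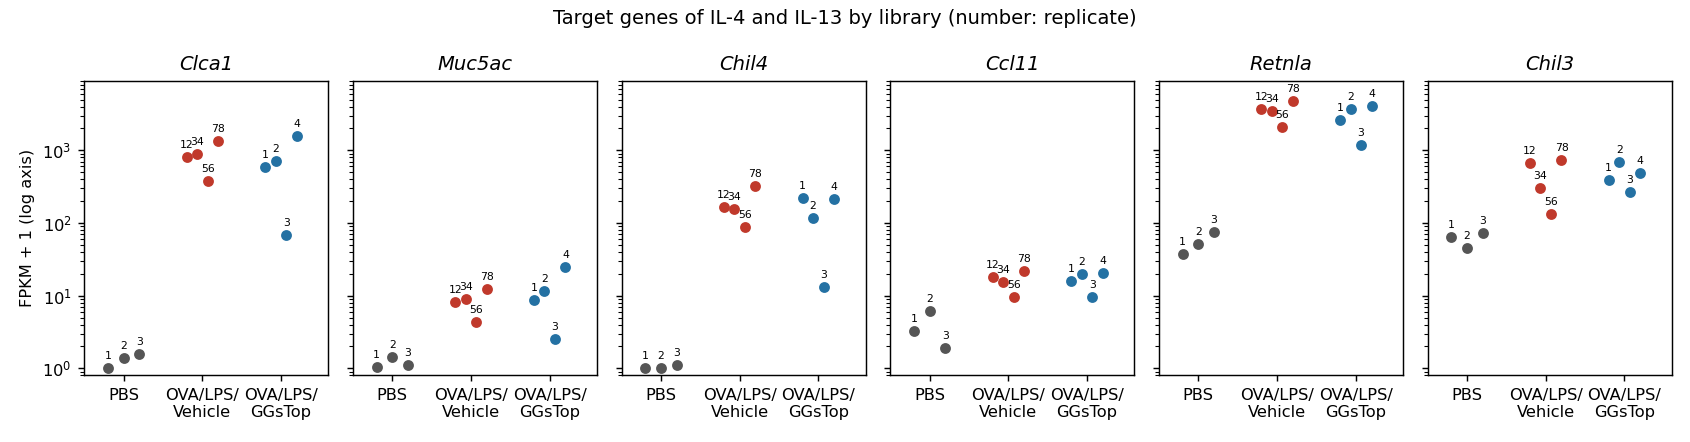
FPKM + 1 on a log axis of 6 target genes of IL-4 and IL-13 in each library of the 3 groups, with replicate numbers. Every library given OVA and LPS lay above every PBS library for all 6 genes, vehicle and GGsTop libraries overlapped, and OVA/LPS/GGsTop 3 was the lowest GGsTop library in each panel. The 6 genes are a choice from the target lists. Among the targets not shown, Postn and Arg1 overlapped between PBS and both other groups. The share of all genes that separated from PBS in this way was not counted.

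Between vehicle and PBS, 15.9% of all genes tested were higher and 22.1% lower. Of 18 genes tested of type 2 lymphocytes, the cells that make these cytokines, 4 were higher and 2 lower there, 1 higher and 1 lower after GC correction, and 2 higher and 1 lower without PBS 3. Il1rl1, the IL-33 receptor of these cells and of mast cells, was at 0.799 to 1.28 FPKM in PBS, 1.32 to 3.01 with vehicle and 1.86 to 2.78 with GGsTop, above PBS in all 8 libraries. It was called with vehicle (0.55, SE 0.18, adjusted p = 0.0351) and with GGsTop (0.78, SE 0.18, adjusted p = 0.0453), and neither call held after GC correction (adjusted p = 0.403 and 0.0662) or without PBS 3 (0.101 and 0.139). Maf (0.57, SE 0.14, adjusted p = 0.0109), a factor that activates Il4, Il7r (0.72, SE 0.25, adjusted p = 0.0409) and Cd200r1 (0.81, SE 0.19, adjusted p = 0.0101) also rose with vehicle, while Crlf2 (-0.80, SE 0.22, adjusted p = 0.0163), the receptor chain for TSLP, and Notch1 (-1.34, SE 0.25, adjusted p = 0.00452) fell. Maf and Notch1 were also called after GC correction and without PBS 3, Cd200r1 only without PBS 3 (adjusted p = 0.158 after GC correction), and Il7r and Crlf2 under neither (0.396 and 0.0708 after GC correction, 0.188 and 0.0690 without PBS 3). GGsTop raised Notch1 over vehicle (1.07, SE 0.23, adjusted p = 0.0242). Gata3, the master regulator of T helper 2 cells, was at 1.82 to 2.32 FPKM in PBS, 1.11 to 3.36 with vehicle and 0.578 to 1.70 with GGsTop and was not called. Cd3e and Cd4, which mark T cells, were not called either, with -0.01 (SE 0.31, adjusted p = 0.985) and 0.19 (SE 0.38, adjusted p = 0.713) for vehicle against PBS.

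Of 8 neighbours of the cytokine genes on chromosome 11 tested, 3 had a positive and 5 a negative difference between vehicle and PBS (median -0.22). The 2 that fell were the collagen hydroxylase gene P4ha2 (-0.58, SE 0.16, adjusted p = 0.0182) and Sept8 (-0.42, SE 0.14, adjusted p = 0.0403), and 0 of 8 were called higher by limma. Of all genes tested, 22.1% were lower and 15.9% higher. Rad50, a DNA repair gene whose introns hold control elements of Il4 and Il13, differed by -0.13 (SE 0.13, adjusted p = 0.443), Kif3a by 0.28 (SE 0.13, adjusted p = 0.0945), with all vehicle libraries above all PBS libraries, and Irf1 by -0.33 (SE 0.18, adjusted p = 0.166). Under GGsTop P4ha2 rose over vehicle (0.68, SE 0.15, adjusted p = 0.0271, and 0.0523 after GC correction and 0.0505 without OVA/LPS/Vehicle 12). Neither fall was called without PBS 3 or after GC correction, under which Rad50 was the 1 gene of 8 called lower (-0.35, adjusted p = 0.0435). Between GGsTop and vehicle, 2 of the 8 neighbours were higher without PBS 3, against 1 as deposited.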

How the data were processed

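The authors deposited FPKM per gene and library (1 column per library; 0 columns belonged to no sample). The submitters' processing notes name cutadapt 1.15, HISAT2 2.0.5, HTSeq 0.9.1 and mm39, and strandedness is not given in the sources used here. Gene IDs matched GENCODE M21 (GRCm38, from which all coordinates come) for 21795 of 21899 genes. FPKM times exon length gave whole fragments (tolerance 0.02) in all libraries for 97.6% of genes, including all members. Genes averaging 0.5 FPKM or more over the libraries were fitted as log2(FPKM + 1), all 3 groups together, with limma 3.58.1 (R 4.3.3, trend). P-values were two-sided, Benjamini-Hochberg adjusted over 14004 genes, and called under 0.05. Il5, Il13 and Il13ra2, under that minimum, had exact permutation tests (scipy 1.17.1), adjusted over the 3 comparisons of each. The GC correction subtracted a natural spline (5 degrees of freedom) per library, with the GC content of each gene taken from its longest transcript. PBS and OVA/LPS/GGsTop libraries share replicate numbers, and same-numbered libraries deviated together (r = 0.367, 0.427 and 0.428), so a replicate block was tried. Libraries of different numbers ranged from -0.693 to 0.637, and PBS 1, 2 and 3 correlated best with OVA/LPS/GGsTop 3, 4 and 3. The fit was tested on simulated data. Members and lists were chosen with earlier results of these data known. Named are the members, up to 4 called genes per direction of each list and comparison by smallest p (2 where none was called), a fixed set of receptors, kinases, targets and locus neighbours, and the 3 nearest patterns per member. Prg2, Epx, Foxj1, Kit, Ms4a2, Krt5 and Scgb3a1 were singled out from marker lists, and Il3, Il9 and Il31 from the cytokine list, after their values were seen.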

Additional observations from a re-analysis of the deposited data

Results flagged for a closer look

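In 7 of 94 groups of 4 libraries examined for the named genes, 1 library lay far from the other 3, and chance alone gives about 1 in 20 groups such a library. OVA/LPS/GGsTop 4 had 0.148 FPKM of Il13ra2, against 0.0556 to 0.0604 in the other GGsTop libraries. OVA/LPS/Vehicle 12, the library with thymocyte genes, was high for Gata3 (3.36 FPKM, others 1.11 to 1.27), Socs1 (4.17, others 2.24 to 2.29), Irf1 (30.3, others 23.7 to 24.7) and Jak1 (33.2, others 28.4 to 29.0). OVA/LPS/GGsTop 1 was high for Rad50 (7.67, others 5.66 to 5.93), and OVA/LPS/Vehicle 56 was low for Sept8 (16.1, others 18.3 to 18.6).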

How the results depend on the processing

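Of the log2 fold changes of the 4 tested members under other settings, 266 kept direction and side of the threshold, 30 lost and 5 gained a call and 7 changed sign. Some settings, such as leaving out a library of the third group or fitting only the 2 groups, cannot change the difference itself. Differences that stayed uncalled are counted as kept. The settings that joined GC correction with leaving out PBS 3, left out PBS 3 and OVA/LPS/GGsTop 3, left out OVA/LPS/Vehicle 12, 34 and 56, joined the replicate block with GC correction or used limma voom were chosen after seeing the data, as were the list values without PBS 3 or OVA/LPS/Vehicle 12. Without OVA/LPS/Vehicle 12, 34 and 56, 1 vehicle library was left, assumed to vary like the other groups, and limma called 4 genes and 0 members for vehicle against PBS, 0 and 0 for GGsTop against vehicle and 39 and 0 for GGsTop against PBS (2857, 854 and 2085 genes at an unadjusted p under 0.05). The causes of the shifts were not tested. Vehicle against PBS called 5327 genes and 4 members as reported. It called 3007 and 2 after GC correction, 736 and 0 with GC correction without PBS 3, 3108 and 2 without PBS 3 and OVA/LPS/GGsTop 3, and 3064 to 6440 and 2 to 4 on leaving out each library. GGsTop against vehicle called 1220 genes and 1 member. It called 2181 genes with libraries scaled to the same total, 698 and 0 members with the same median, 311 and 0 after GC correction, 5214 and 2 with array weights, 3525 genes with only these 2 groups, 550 and 0 with GC correction without PBS 3, 2728 genes without PBS 3 and OVA/LPS/GGsTop 3, and 24 to 3591 and 0 to 1 when leaving out each library. GGsTop against PBS called 403 genes and 0 members by limma. It called 208 genes with no minimum level, 609 after GC correction, 2557 and 2 members with array weights, 39 genes with only these 2 groups, 52 with GC correction without PBS 3, and 29 to 1597 and 0 to 2 members when leaving out each library. With the replicate block, which pairs PBS and GGsTop libraries of the same number, 95 genes were called, and it changed no call of a member; with GC correction in the same fit the Stat6 difference became 0.029.

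Sign changes of differences that were not called concerned Il4 between GGsTop and vehicle, at 0.19 after GC correction with or without PBS 3, 0.022 without PBS 3 and OVA/LPS/GGsTop 3, and -0.17 to 0.022 when leaving out each library, and Il4ra there, at -0.018 after GC correction with or without PBS 3. Leaving out each library gave -0.033 to 0.021 for Il5 between GGsTop and vehicle, -0.085 to 0.033 for Il13 between vehicle and PBS and -0.0020 to 0.138 for Il13 between GGsTop and PBS. Scaling to the same total moved the median of all genes to -0.15 for vehicle against PBS and 0.11 for GGsTop against vehicle, and there Il4 was not called for vehicle against PBS (0.63, adjusted p = 0.0676), nor with no minimum level (adjusted p = 0.0515). Depth limits Il5 and Il13, with at most 6 fragments in a library, and Il13ra2, with at most 26.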
